A study of Mus musculus with 6 samples.

Results

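The SLC25 mitochondrial carriers were taken as the genes whose symbol begins with Slc25a and whose mean over 6 libraries was at least 10 normalised read counts. The table held 47 such genes, and 38 of them met the minimum, out of 11947 genes that met it in all. The study compared mouse T helper 17 (Th17) cells that carry an active form of the transcription factor STAT3, with and without a deletion of Stim1, and its design text names the transcriptome as the readout. Both groups were C57BL/6 cells: naive CD4 T cells kept for 2 days on plate-bound anti-CD3 and anti-CD28 with the cytokines IL-23, IL-1b and IL-6, which the labels call pathogenic Th17 cells. The control group, Stat3C, had the genotype Stat3CSTOPfl/fl CD4-Cre, and the other, called Stim1KO Stat3C here, had Stim1fl/fl Stat3CSTOPfl/fl CD4-Cre, with 3 libraries in each. CD4-Cre and the active Stat3 allele were thus shared by both groups, so no group had wild-type Stat3. CD4-Cre acts in developing thymocytes, so the alleles were recombined before the culture began. The labels do not say which libraries came from separate mice, so the p-values are over libraries.

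Carriers of the SLC25 family are small proteins that move metabolites, nucleotides, cofactors and inorganic ions across the inner mitochondrial membrane, most of them by exchange. They feed the respiratory chain with ADP and phosphate, carry citrate and amino acids between the matrix and the cytosol, and bring in cofactors that matrix enzymes need. Several have calcium-binding EF-hands that face the space between the membranes and respond to cytosolic calcium. STIM1 is the calcium sensor of the endoplasmic reticulum that starts store-operated calcium entry, which T cells use after receptor stimulation.

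The libraries held between 16009755 and 51347367 reads on genes, recovered from the deposited values, and the Stat3C libraries were on average the deeper ones. Stim1 stood at 1999, 1969 and 1931 normalised counts in Stat3C and at 811, 794 and 687 in Stim1KO Stat3C, a log2 fold change of -1.37 (SE 0.08, limma, Benjamini-Hochberg adjusted p = 0.000287), so the labels held. The 5 T helper markers were high in every library, with summed levels of 34449 to 39116 in Stat3C and 46391 to 51081 in Stim1KO Stat3C. The 5 Th17 markers summed to 14067 to 18750 in Stat3C and 4401 to 5066 in Stim1KO Stat3C. Low levels of other cell types moved with the groups. The 5 B cell markers summed to 111 to 335 in Stat3C and 18.3 to 35.8 in Stim1KO Stat3C, where Ms4a1 was at 0 in all 3 libraries, and the 2 CD8 markers to 277 to 453 and 111 to 159. Of the 5 myeloid markers in the table, Cd68 was higher in Stim1KO Stat3C (317 to 396, against 115 to 139), Lyz2, Itgam, Csf1r and Emr1 were at 11.8 or less in every Stim1KO Stat3C library, and the 5 summed to 123 to 265 in Stat3C and 331 to 399 in Stim1KO Stat3C. The 4 natural killer markers summed to 8.72 to 18.1 and 4.30 to 13.7. The 5 erythroid markers in the table summed to 13.0 to 349 and 9.59 to 13.9, with Hba-a1, Hba-a2 and Hbb-b1 at 0 in every library. Stat3C replicate 2 stood apart: it held the erythroid factor Klf1 at 323 against 9.59 to 13.6 elsewhere, and it was the farthest of its group from the group mean for 24 of the 38 carriers. Replicate 3 of each group was high in Xist and the others were not, so replicate 3 came from another mouse than replicates 1 and 2; whether the latter are separate mice is not known. The part of these differences in the results below was not tested, other than by the fits without each library and with Xist as a covariate.

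Of the 38 carriers, the most abundant were those that supply ATP synthase and export its product. Ucp2, a family member whose symbol does not begin with Slc25a, was left out of this ranking. Before division by length it averaged 14482 normalised counts over the 6 libraries, against 12128 for Slc25a3. Per kb of exon, which allows levels of different genes to be compared, Slc25a5, the main ADP/ATP exchanger of dividing cells, averaged 16550 normalised counts over the 6 libraries. Slc25a3, which imports phosphate, averaged 6232 per kb, and Slc25a4, the ADP/ATP exchanger best known from muscle and heart, 3119 per kb. These were followed by Slc25a39, an importer of glutathione, at 1603 per kb and Slc25a11, which exchanges oxoglutarate for malate, at 1188 per kb. Of the counts over all 38 carriers, the first 3 took 59.3% to 60.8% in each Stat3C library and 56.1% to 59.1% in each Stim1KO Stat3C library. The summed counts of the 38 were 68878, 66792 and 70969.7 in Stat3C, against 59129, 62471 and 63727 in Stim1KO Stat3C, so each library of the second group lay below each of the first. At the other end, Slc25a27, a relative of the uncoupling proteins, averaged 4.30 per kb. With the longest transcript in place of all exons as the length, Slc25a3 stood at 7523 per kb, and the order changed at a single pair of neighbours, Slc25a32 and Slc25a36.

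**Figure D1:**
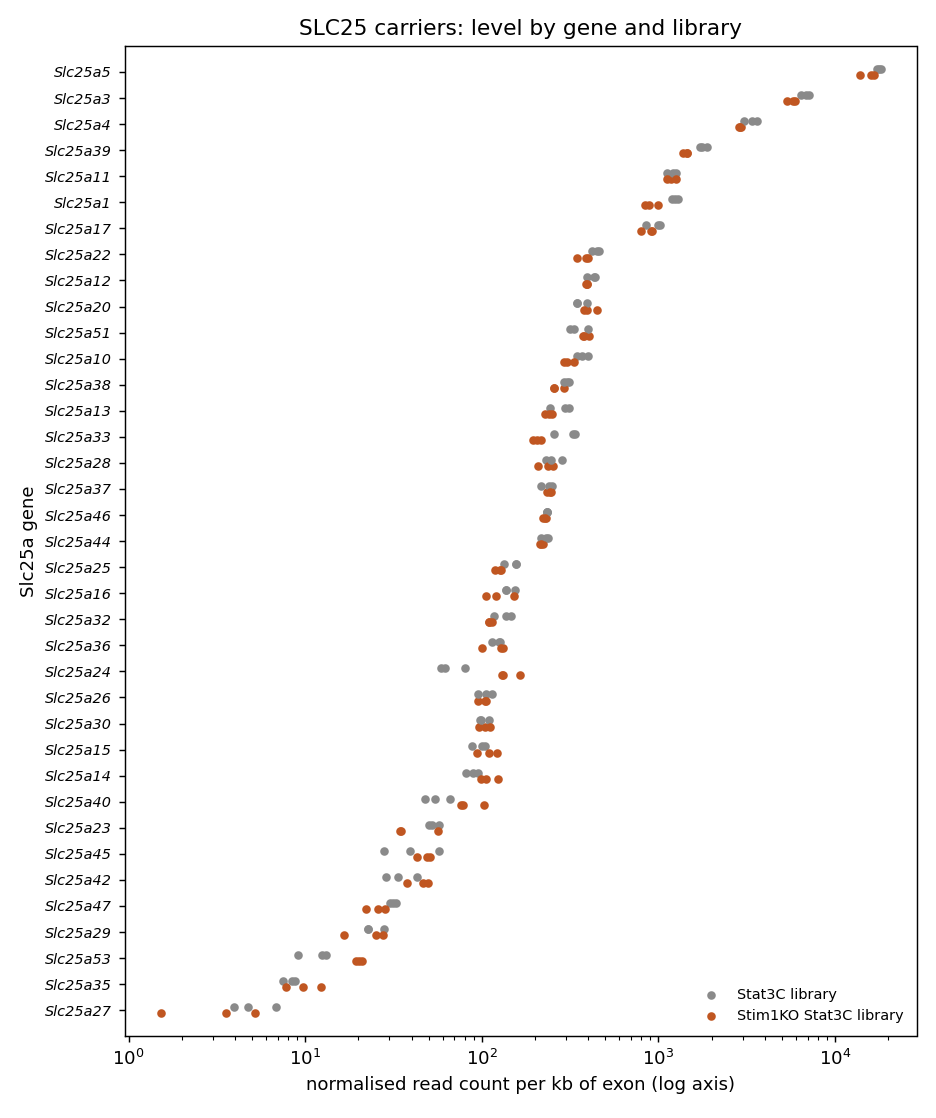
Level of 37 carriers in each of the 6 libraries, in normalised read counts per kb of exon on a log axis, with Stat3C libraries in grey and Stim1KO Stat3C libraries in orange. Of the carriers shown, Slc25a5, Slc25a3 and Slc25a4 lie above all others and Slc25a27 is the lowest. The 2 groups are apart for Slc25a24 and close for most other carriers.

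In Stim1KO Stat3C, 2 carriers rose and 4 fell, and 32 did not pass the test, which was limma on log2(value + 1) with Benjamini-Hochberg adjustment over 11947 genes and a threshold of 0.05. Slc25a24, an exchanger of ATP-Mg for phosphate that is switched on by calcium, was among those that rose. Those that fell were Slc25a1, the citrate carrier, Slc25a3, the phosphate carrier, Slc25a33, a carrier of pyrimidine nucleotides, and Slc25a39, the glutathione carrier. The 6 calls are 15.8% of the carriers, near the 13.6% called among all genes. By direction, 5.26% of the carriers rose, against 8.62% of all genes, and 10.5% fell, against 4.96%. Without a threshold, 25 of the 38 fold changes were negative (65.8%, against 50.2% of all genes). The median log2 fold change was -0.10 for the carriers and -0.00 for all genes, with carriers ranging from -0.67 to 1.08. The groups did not overlap for 18 carriers, or 47.4%, against 35.6% of all genes: 5 were higher in every Stim1KO Stat3C library (19.2% of all genes were) and 13 were lower (16.4%). In bulk RNA, fewer cells of a type and less RNA per cell cannot be told apart.

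**Figure D2:**
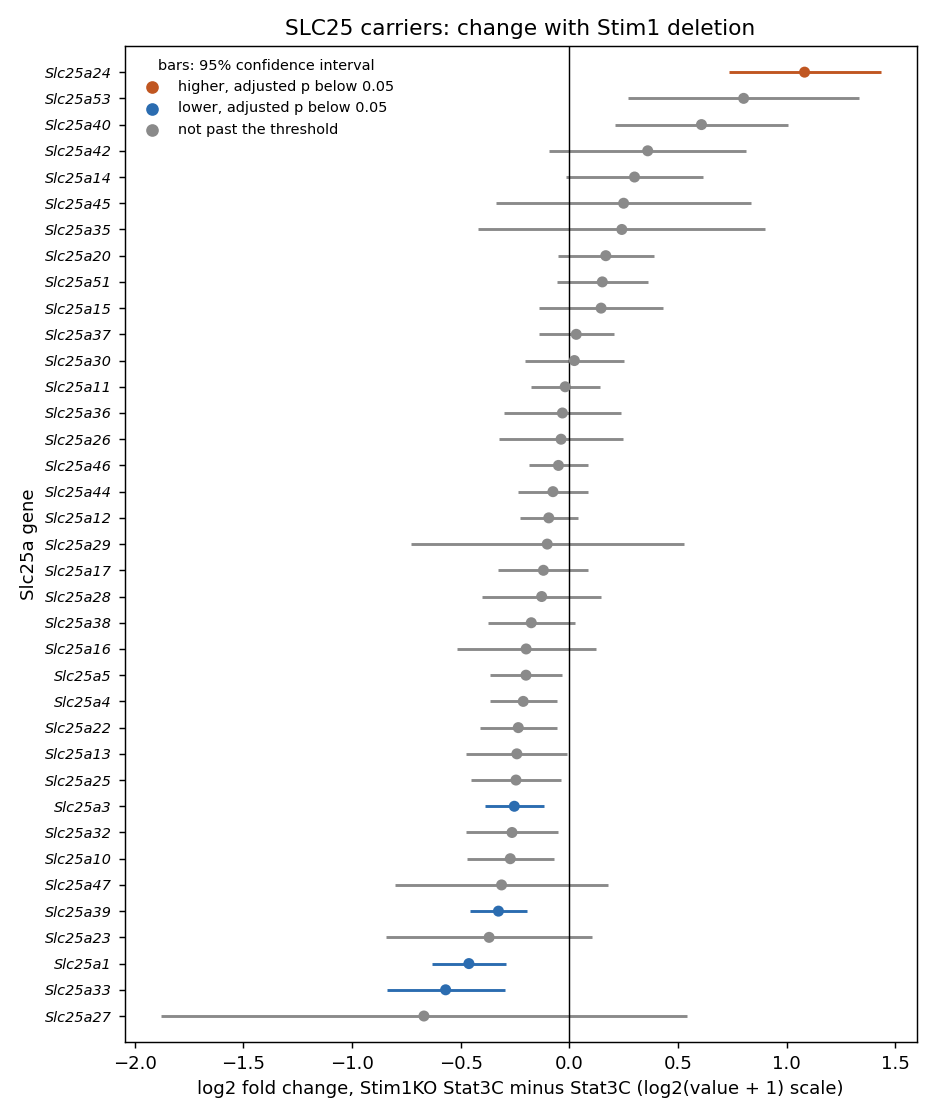
The log2 fold change of 37 carriers, as Stim1KO Stat3C minus Stat3C after taking log2(value + 1), with its 95% confidence interval from limma. Carriers that rose are in orange, the 4 that fell in blue and the 32 that did not pass in grey; Slc25a24 has the largest value, 1.08, and Slc25a27, at -0.67, the widest interval.

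The counts changed with the libraries in the fit, and so did the calls over all genes, 1623 with all 6 libraries. Without Stat3C replicate 2, which stood apart, 1707 of all 11947 genes rose and 1192 fell, against 1030 and 593 with all 6 libraries. Of the carriers, 5 rose and 9 fell in that fit. Those gained were Slc25a40, Slc25a51 and Slc25a53, higher, and Slc25a4, Slc25a13, Slc25a22, Slc25a25 and Slc25a32, lower. With Stat3C replicate 1 or 3 left out, or else replicate 1 or 2 of Stim1KO Stat3C, 1 rose and 2 fell, and these were Slc25a24, Slc25a1 and Slc25a39. Those 3 passed in each of the 20 other analyses run, and the other 3 called carriers in 13 or 14 of them. With Xist as a covariate all 6 passed.

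The carriers of ATP, ADP and phosphate did not move as one. Of 6 measured, 1 rose (Slc25a24), 1 fell (Slc25a3) and 4 did not pass. Slc25a24 stood at 212, 277 and 203 normalised counts in Stat3C and at 564, 451 and 448 in Stim1KO Stat3C. Each Stim1KO Stat3C library was thus above each Stat3C library. Its mean went from 231 ± 40.5 to 488 ± 66.3 (SD, n = 3), a 2.12-fold rise with a log2 fold change of 1.08 (SE 0.15, limma, adjusted p = 0.00434), and the adjusted p was at most 0.0282 over the 20 alternatives.

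Slc25a3, whose phosphate import serves ATP synthesis in the matrix, was at 13362, 12426 and 13774 in Stat3C and at 10459, 11278 and 11467 in Stim1KO Stat3C. The groups did not overlap, and the mean fell by 16.1%. The log2 fold change was -0.25 (SE 0.06, limma, adjusted p = 0.0288). This call was lost in limma without any library other than Stat3C replicate 2. The adjusted p values were from 0.0502 without Stim1KO Stat3C replicate 3 to 0.117 without Stat3C replicate 3. It was also lost in limma without a variance trend (adjusted p = 0.0919) and in edgeR without Stim1KO Stat3C replicate 3 (0.0595). The log2 fold change lay between -0.29 and -0.21 over the alternatives.

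The ADP/ATP exchangers lay lower in every Stim1KO Stat3C library but did not pass. Slc25a5 was at 21979.9, 21329 and 22402 in Stat3C and at 17081, 19692 and 20646 in Stim1KO Stat3C (log2 -0.20, 95% confidence interval -0.37 to -0.03, limma adjusted p = 0.11). Slc25a4 was at 6484, 5878 and 6992 in Stat3C and at 5616, 5479.8 and 5577 in Stim1KO Stat3C (log2 -0.21, interval -0.37 to -0.06, limma adjusted p = 0.0728). Both passed in DESeq2 on recovered reads, at adjusted p = 0.0339 for Slc25a5 and 0.0165 for Slc25a4, and after quantile normalization, at 0.0333 and 0.0367. In all, Slc25a5 passed in 3 of the 20 alternatives and Slc25a4 in 4, with edgeR and voom on the same reads not among them. Of the relatives, Slc25a31, Slc25a41 and Slc25a54 were listed at 0 in every library, where 3 reads would give between 1.30 and 4.11 normalised counts.

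Slc25a24 rose, and neither of its nearest relatives passed the test. Slc25a23, Slc25a24 and Slc25a25 are the ATP-Mg/phosphate exchangers with calcium-binding EF-hands, which set the size of the adenine nucleotide pool in the matrix. Slc25a23 stood at 191, 175 and 169 in Stat3C and at 118, 190.1 and 116 in Stim1KO Stat3C. Its groups overlapped through Stim1KO Stat3C replicate 2 (log2 -0.37, interval -0.84 to 0.10, limma adjusted p = 0.26). Slc25a25 was at 640.3, 551 and 644 in Stat3C and at 492, 528 and 525 in Stim1KO Stat3C. All 3 of the latter were lower, without passing the test (log2 -0.24, interval -0.45 to -0.04, limma adjusted p = 0.112). As a share of the 3 exchangers per kb, Slc25a24 made up 22.6%, 30.3% and 22.2% in Stat3C, against 51.6%, 41.6% and 44.6% in Stim1KO Stat3C, a rise of 20.9 percentage points in the mean. The groups were fully apart, at p = 0.10 in a two-sided exact permutation test, the smallest p that 3 against 3 allows. This share was chosen after the values had been seen.

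The other EF-hand carriers, Slc25a12 and Slc25a13, exchange matrix aspartate for cytosolic glutamate in the malate-aspartate shuttle. Slc25a12 was at 2732, 2500.1 and 2782 in Stat3C and at 2513, 2478 and 2509 in Stim1KO Stat3C, with overlap through Stat3C replicate 2 (log2 -0.09, interval -0.23 to 0.04, limma adjusted p = 0.303). Slc25a13 was at 919.9, 764 and 972 and then at 708, 784 and 745, again overlapping at Stat3C replicate 2 (log2 -0.24, interval -0.47 to -0.01, limma adjusted p = 0.149). Of the 5 EF-hand carriers, then, 1 rose and 4 did not pass, with negative values. Without Stat3C replicate 2, Slc25a13 (limma adjusted p = 0.0163) and Slc25a25 (0.0326) fell, as they did with library quality weights (0.0199 and 0.0139), so the count that fell, 0 or 2, rested on that library. With the glutamate carrier Slc25a22 (log2 -0.23, limma adjusted p = 0.082), 0 of 3 aspartate and glutamate carriers passed in limma, in edgeR or in DESeq2, although 2 had an unadjusted p below 0.05 in limma. Those 2, Slc25a13 and Slc25a22, passed in limma without Stat3C replicate 2 (0.039 for Slc25a22) and with library quality weights (0.016).

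**Figure D3:**
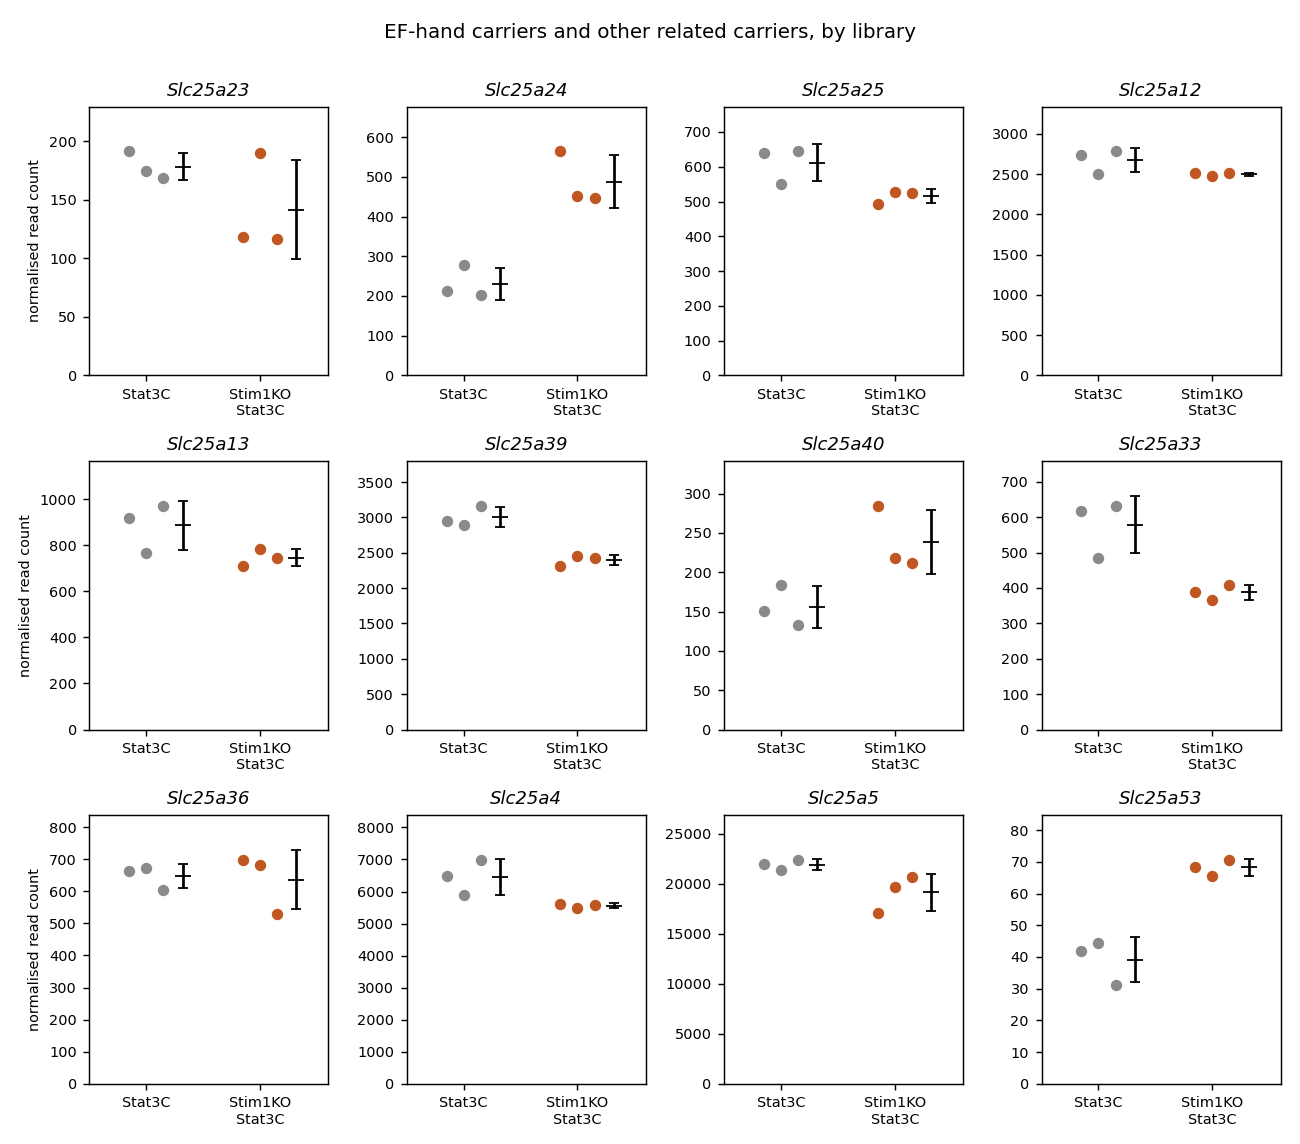
Normalised read counts by library for the EF-hand carriers and for other related carriers, with 1 panel per gene, axes from 0, Stat3C in grey, Stim1KO Stat3C in orange, and a bar for the mean ± SD of 3 libraries. Slc25a24 and Slc25a40 are higher in every Stim1KO Stat3C library while Slc25a25, Slc25a39 and Slc25a33 are lower and Slc25a23, Slc25a12, Slc25a13 and Slc25a36 overlap.

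Among the carriers of carboxylates, 1 of 3 measured fell. Slc25a1 exports citrate, from which the cytosol makes acetyl-CoA for lipids and for acetylation. It stood at 1999.6, 2075 and 2157 in Stat3C and at 1402, 1652 and 1479 in Stim1KO Stat3C. The highest Stim1KO Stat3C library was below the lowest Stat3C library, and the mean fell by 27.3% (2077 ± 78.7 to 1511 ± 128, SD, n = 3). The log2 fold change was -0.46 (SE 0.07, limma, adjusted p = 0.007), and between -0.53 and -0.39 over the alternatives. Slc25a10, which exchanges malate or succinate for phosphate, was lower in every Stim1KO Stat3C library without passing (753 ± 53.8 to 624 ± 41.5, log2 -0.27, limma adjusted p = 0.0758). Slc25a11 overlapped, at 1917, 2147 and 2072 and then at 1909, 2002 and 2148 (log2 -0.02, interval -0.18 to 0.14, limma adjusted p = 0.878).

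Among the carriers of cofactors and nucleotides, Slc25a33 fell. Slc25a33, which carries pyrimidine nucleotides for the synthesis of mitochondrial DNA and RNA, was at 616, 486 and 633 in Stat3C and at 388, 366 and 408 in Stim1KO Stat3C. It was lower in each of the latter, with the mean down from 578 ± 80.7 to 387 ± 20.9 (log2 -0.57, SE 0.12, limma adjusted p = 0.0188). Slc25a36, the other pyrimidine nucleotide carrier, overlapped between the groups, at 662, 673 and 604 and then at 698, 682 and 529 (log2 -0.03, interval -0.30 to 0.24, limma adjusted p = 0.878).

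The call of Slc25a33 depended on the libraries in the fit, as did the number of calls over all genes. It was lost without Stat3C replicate 1 (limma adjusted p = 0.0848) or 3 (0.0812) and without Stim1KO Stat3C replicate 1 (0.0685) or 2 (0.0722). Without a variance trend in limma it also missed the threshold, at 0.054. The log2 fold change lay between -0.69 and -0.50 over the alternatives. Over 281 bases Slc25a33 also overlaps an annotated gene on the opposite strand, Gm13068, and whether counting used the strand is not stated in the labels. The other cofactor carriers included the NAD carrier Slc25a51 (1543 ± 190.3 to 1708 ± 72.9, log2 0.15, limma adjusted p = 0.288) and the folate and FAD carrier Slc25a32 (789.8 ± 83.8 to 655 ± 13.3, log2 -0.26, limma adjusted p = 0.0956). The carriers of S-adenosylmethionine (Slc25a26), of coenzyme A (Slc25a42, and Slc25a16, to which the same role has been assigned) and of peroxisomal cofactors (Slc25a17) had log2 fold changes from -0.20 to 0.36 and did not pass.

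Of the glutathione carriers, Slc25a39 fell and Slc25a40 had a positive fold change that missed the threshold. Slc25a39, whose glutathione protects the iron-sulfur proteins of the matrix, was at 2955, 2894 and 3168 in Stat3C and at 2309, 2453 and 2430.2 in Stim1KO Stat3C. The groups did not overlap and the mean fell by 20.2% (log2 -0.33, SE 0.06, limma adjusted p = 0.0106). Its paralogue Slc25a40, with the same substrate, was at 151, 184 and 133 in Stat3C and at 285, 218 and 212 in Stim1KO Stat3C. All 3 of the latter were higher, but the change missed the threshold (log2 0.61, SE 0.17, limma adjusted p = 0.0547). It passed in 6 of the 20 alternatives, DESeq2 and the fit without Stat3C replicate 2 (adjusted p = 0.0138) among them. Per kb, Slc25a40 made up 2.99%, 3.71% and 2.47% of the pair in Stat3C, against 6.95%, 5.10% and 5.01% in Stim1KO Stat3C. These groups were fully apart as well (two-sided exact permutation p = 0.10, the smallest possible, for a share likewise chosen after its values were seen). The iron importers Slc25a37 and Slc25a28, the mitoferrins, did not pass, with means of 982 ± 71.9 and 1003 ± 28.4 for Slc25a37 and of 391 ± 42.7 and 358 ± 34.7 for Slc25a28.

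**Figure D4:**
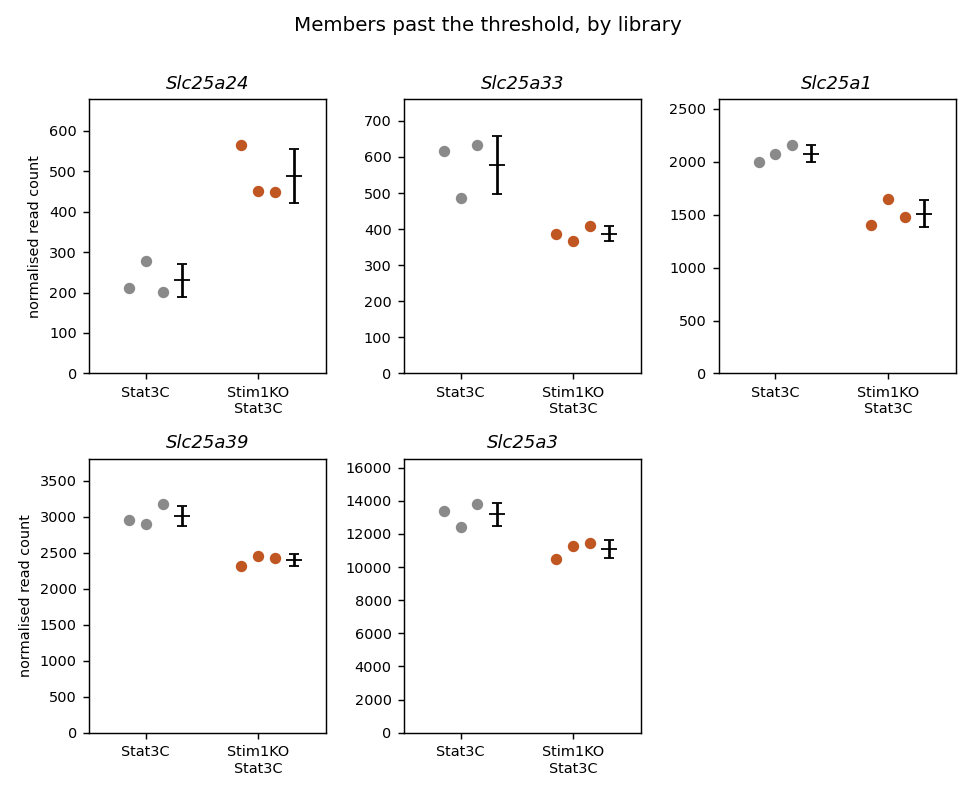
Normalised read counts of 5 carriers past the threshold, by library, in panels with axes from 0, with Stat3C in grey, Stim1KO Stat3C in orange, and a bar for the mean ± SD of 3 libraries. The groups do not overlap in any panel; the distance is widest for Slc25a24 (231 and 488) and narrowest, as a ratio, for Slc25a3 (13187 and 11068).

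The carriers of other amino acids and of acylcarnitine gave no call. Of 7 measured, 0 passed in limma, 0 had an unadjusted p below 0.05, and 0 passed in edgeR or DESeq2 on recovered reads. Slc25a20, which imports acylcarnitine for fatty acid oxidation, averaged 644 ± 49.3 in Stat3C and 725 ± 67.6 in Stim1KO Stat3C (log2 0.17, interval -0.05 to 0.39). The glycine carrier Slc25a38, needed for the first step of heme synthesis, went from 542 ± 18.2 to 481 ± 36.3 (log2 -0.17, interval -0.37 to 0.03), and all 3 Stim1KO Stat3C libraries were below the Stat3C ones. The ornithine carrier Slc25a15 and the branched-chain amino acid carrier Slc25a44 had log2 fold changes of 0.15 and -0.07, and Slc25a29, Slc25a45 and Slc25a47 lay between -0.31 and 0.25.

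Relatives of the uncoupling proteins and carriers without a settled substrate were at low to moderate levels and none passed in limma with all 6 libraries and the default settings, in edgeR or in DESeq2. Of these 6 carriers, Slc25a53 was the one with an unadjusted p below 0.05. It is a relative of the NAD carrier Slc25a51, on the X chromosome. Slc25a53 stood at 42.0, 44.3 and 31.0 in Stat3C and at 68.5, 65.5 and 70.7 in Stim1KO Stat3C. The groups were apart by more than the spread within either, with the mean 1.74-fold higher, and the change missed the threshold (log2 0.80, SE 0.23, limma adjusted p = 0.0561). It passed in 3 limma alternatives, without a variance trend (adjusted p = 0.0393), with library quality weights (0.0219) and without Stat3C replicate 2 (0.0337), and not with Xist as a covariate (0.0617). Slc25a27, just inside the minimum of 10, was at 26.8, 18.6 and 15.5 in Stat3C and at 20.5, 14 and 5.97 in Stim1KO Stat3C. Its groups overlapped and its interval was the widest (log2 -0.67, interval -1.88 to 0.54, limma adjusted p = 0.42). Slc25a14 (161 ± 12 to 198 ± 22), Slc25a30 (366 ± 24.1 to 372 ± 25.7) and Slc25a35 (30.3 ± 2.34 to 36.6 ± 8.20) did not pass, nor did Slc25a46, a shaping protein of the outer membrane (1022 ± 3.41 to 988 ± 16.6).

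Just outside the minimum were Slc25a21, an oxoadipate carrier, with a mean of 6.77, Slc25a43 with 4.97, Slc25a2, an ornithine carrier, with 3.05 and Slc25a48 with 1.82. Slc25a18 and Slc25a34, like the 3 relatives named above, were listed at 0 in every library.

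The sequence before the start of the carriers that moved was read to see whether they share a motif. RefSeq (GRCm38.p6) gave a promoter window for 29 of the 38 carriers, and the 250 bases before the start are shown for the citrate carrier and the pyrimidine nucleotide carrier, which fell and hold an E-box, and for Slc25a24, which rose and holds none of the motifs searched. Slc25a3 and Slc25a39, which also fell, hold no E-box in their windows, so the E-box was in 2 of the 4 carriers that fell. Slc25a39, like Slc25a24, holds none of the motifs searched, and Slc25a3 holds only the ETS core CCGGAAG. Capitals mark the E-box CACGTG and, in Slc25a33, the NFAT core TGGAAA on the opposite strand. NFAT factors are activated by store-operated calcium entry, and whether they act on Slc25a33 was not tested. The core was also in Slc25a14, Slc25a15 and Slc25a53. Those had positive log2 fold changes and did not pass in limma with all 6 libraries and the default settings. Slc25a1 is at chr16:17928220-17928469 and Slc25a33 at chr4:149774268-149774517, both on the minus strand, and Slc25a24 at chr3:109122899-109123148 on the plus strand.
Slc25a1: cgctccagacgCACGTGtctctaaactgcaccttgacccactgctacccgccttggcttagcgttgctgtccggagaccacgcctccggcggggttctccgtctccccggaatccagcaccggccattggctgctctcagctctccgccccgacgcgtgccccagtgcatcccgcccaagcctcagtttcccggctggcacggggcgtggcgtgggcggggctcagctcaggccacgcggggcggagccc
Slc25a33: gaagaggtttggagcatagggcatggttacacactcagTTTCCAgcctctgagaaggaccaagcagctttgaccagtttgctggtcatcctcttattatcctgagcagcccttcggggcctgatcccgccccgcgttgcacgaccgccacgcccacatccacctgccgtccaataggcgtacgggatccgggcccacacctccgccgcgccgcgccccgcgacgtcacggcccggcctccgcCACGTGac
Slc25a24: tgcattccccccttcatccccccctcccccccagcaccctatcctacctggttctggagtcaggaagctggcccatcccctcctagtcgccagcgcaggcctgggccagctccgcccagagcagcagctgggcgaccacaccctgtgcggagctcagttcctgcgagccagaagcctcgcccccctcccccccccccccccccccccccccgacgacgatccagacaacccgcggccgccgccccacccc

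Counted over both strands of these 250 bases, the E-box CACGTG was in 6 of 29 carriers (20.7%), against 10.1% of the 8938 tested genes with a window. The carriers were Slc25a1, Slc25a13, Slc25a14, Slc25a15, Slc25a33 and Slc25a36. Of these, Slc25a1 and Slc25a33 fell and the other 4 did not pass, with log2 fold changes of either sign. The NFAT core TGGAAA was in 4 of 29 (13.8%, against 17.7%), the ETS core CCGGAAG in 5 (17.2%, against 16.4%), the cAMP response element TGACGTCA in 2 (6.90%, against 3.12%) and the NRF1 core GCATGCGC in 0 (against 5.22%). Counted by window and not by gene, the E-box was in 7 of the 38 windows of these carriers (18.4%), against 6.02% of all 32851 windows. The NFAT core was in 4 of those 38 windows (10.5%), against 18.6%. Such matches describe letters in a window and show no binding.

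Positions of called carriers are given from GENCODE M21 (GRCm38). Slc25a24 spans chr3:109123149-109168457 on the plus strand. Slc25a1 spans chr16:17925223-17928219, Slc25a3 chr10:91116574-91124059 and Slc25a33 chr4:149744036-149774277, all on the minus strand. Slc25a39 spans chr11:102402985-102407946, also on the minus strand. No other gene in that annotation shares exon bases with Slc25a1, Slc25a3, Slc25a24 or Slc25a39.

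Genes that work with the carriers were counted from lists of 48 measured genes. None of them rose in limma (8.62% of all genes did) and 7 fell (14.6%, against 4.96%). At an unadjusted p below 0.05 in limma, 2 of the 48 were higher and 13 lower, against 2036 and 1677 of all 11947 genes. As higher, 1 passed in DESeq2 on recovered reads and 0 in edgeR. Beside Slc25a1 in the citrate route, Acly, the cytosolic enzyme that splits the exported citrate, went from 14873 ± 649.8 to 12440.0 ± 689 (log2 -0.26, SE 0.06, limma adjusted p = 0.0257). It was the 1 that fell of 9 enzymes of the citrate and malate-aspartate shuttles. Beside Slc25a39, 3 of 17 genes of iron-sulfur cluster and heme synthesis fell. Negative values were found for 14 of 17 (82.4%, against 50.2% of all genes), with a median log2 of -0.13. Those that fell were Glrx5, which passes clusters on (log2 -0.39, limma adjusted p = 0.0054), Nfs1, the cysteine desulfurase that supplies the sulfur (-0.31, 0.0236), and Iscu, the scaffold on which clusters are built (-0.27, 0.0464). The largest change in the list was positive, that of Cpox, which did not pass (log2 0.50, limma adjusted p = 0.122).

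Of the TIM22 route, which inserts carriers into the inner membrane, 1 of 9 genes fell, Timm13, an intermembrane-space chaperone (log2 -0.37, limma adjusted p = 0.0113). All 9 values were negative, against 50.2% of all genes, and the median of the 9 was -0.24. Sfxn1, a serine importer outside the SLC25 family, fell as well (log2 -0.28, limma adjusted p = 0.0253), the 1 of 7 other metabolite carriers to do so, as did Gpd2, the mitochondrial enzyme of the glycerol phosphate shuttle (-0.27, 0.0209), 1 of 3 in its list. Of the family members known by other symbols, Ucp2, an uncoupling protein relative of high level, averaged 14558 ± 898 and 14406 ± 354, and neither it nor Mtch1 or Mtch2, which sit in the outer membrane, passed in limma. The count that fell in all these lists was 12 without Stat3C replicate 2, 2 without Stat3C replicate 1, Stat3C replicate 3 or Stim1KO Stat3C replicate 2, 1 without Stim1KO Stat3C replicate 1, and 4 without Stim1KO Stat3C replicate 3. Of all genes, 593 fell with all 6 libraries, 1192 without Stat3C replicate 2, and 140 to 358 without each other library.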

How the data were processed

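Per the labels' protocols, each of the 6 libraries was made from 100 ng of RNA with a TruSeq stranded mRNA kit. DESeq2 1.22.2, HTSeq 0.11.1, TopHat2 2.1.1 and the build mm10 are named, without the role of each, in the submitters' processing notes. Gene models and counting settings are not given in those sources. The deposited values are a normalised signal per gene, read counts that the authors divided by 1 size factor per library. In each column 100% of values were whole multiples, within 0.01, of 1 step (0.433 to 1.37), which gave back the reads. Of 23420 rows, 27 named dates in place of genes (0.193% to 0.226% of reads) and were left out.

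Genes with a mean of at least 10 (11947) were fitted with limma 3.58.1 (R 4.3.3) on log2(value + 1) with a mean-variance trend, as a two-sided test with Benjamini-Hochberg adjustment; fold changes on this scale understate those of low genes. On simulated data of the same genes, limma recovered 34% of genes changed by 0.5 on the log2 scale, 74% at 1, 86% at 2 and 92% at 3, with 8 false among 151 calls. Few genes were changed in the simulation and no simulated library stood apart, unlike Stat3C replicate 2, so recovery in the data may differ. The 20 alternatives were pseudocounts of 0.5 and 5, no filter, a mean of at least 50, TMM and quantile scaling, no trend, a robust prior, edgeR 4.0.16, DESeq2 1.42.0 and voom on the recovered reads, edgeR without the library whose step lay near 1, library quality weights, an Xist covariate, and each library left out. On the recovered reads edgeR called 1507 genes, against 1623 for limma on the deposited values. Levels per kb used GENCODE M21 exons, to which all 47 Slc25a symbols matched. Carriers past the threshold, the EF-hand carriers, the 5 most abundant, the 3 largest changes that missed the threshold and the nearest paralogues are given by library, and the rest by role; 1 carrier is counted but not reported here by name or in the figures. The carriers and the lists were chosen with earlier results of these data known, so no list was tested.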

Additional observations from a re-analysis of the deposited data

How the results depend on the processing

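The median log2 fold change of the carriers stayed between -0.12 and -0.08 over the 20 alternatives, and 35 of the 38 carriers had a mean of at least 50. The 2 carriers that rose were 1 in edgeR without Stim1KO Stat3C replicate 3 (the library with a step near 1) and 6 with library quality weights, and 1 to 5 when 1 library was left out. The 4 that fell were 2 without a variance trend, 2 in that edgeR fit, 11 with quality weights, and 2 to 9 when 1 library was left out. Of the related lists, the 0 that rose were 1 in DESeq2 and 2 with quality weights, and 0 to 1 when 1 library was left out. The 7 that fell were 2 without a variance trend, 11 in DESeq2, 2 in edgeR without that library, 17 with quality weights, and 1 to 12 when 1 library was left out. The cause was not tested. Over all genes, 1030 rose and 593 fell in the main fit, and calls ranged from 617 to 3959. With quality weights 2155 rose and 1804 fell, without a variance trend 603 and 224, and in DESeq2 1246 and 1004. In edgeR without Stim1KO Stat3C replicate 3, 639 rose and 283 fell. When 1 library was left out, 477 to 1707 rose and 140 to 1192 fell. Signs turned in 7 carriers, none of them called, with values over all 6 libraries from -0.10 for Slc25a29 to 0.25 for Slc25a45. With quality weights the log2 fold change was 0.037 for Slc25a11, 0.072 for Slc25a29 and -0.019 for Slc25a37. In edgeR without that library it was -0.036 for Slc25a30 and 0.083 for Slc25a36, and after quantile normalization -0.014 for Slc25a30. When 1 library was left out it lay between -0.064 and 0.021 for Slc25a11, -0.10 and 0.025 for Slc25a26, -0.24 and 0.12 for Slc25a29, -0.024 and 0.077 for Slc25a30, -0.10 and 0.096 for Slc25a36, -0.027 and 0.076 for Slc25a37, and -0.0042 and 0.51 for Slc25a45. Depth limits the low carriers most: 3 reads correspond to 4.11 normalised counts in the shallowest library. No paired analysis was possible because the labels give the groups no shared replicate numbers.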

Other observations

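Slc25a21, the oxoadipate carrier of lysine and tryptophan breakdown, was left out of the tests by its mean of 6.77. It had 71 reads in Stat3C replicate 2 and 2, 3, 0, 1 and 0 in the other libraries, or 35.8 normalised counts against 2.91 at most. The same library held Klf1 at 323 normalised counts, Itgam at 72.5 and Emr1 at 26.7, each above its level in the other 5. Slc25a43, another low carrier, was at 7.36, 10.1 and 5.81 in Stat3C and at 1.37, 3.22 and 1.99 in Stim1KO Stat3C. Among the 38 carriers that were tested, those whose mean reached 1000 normalised counts held 4 of the 6 calls: 4 of 12 passed (33.3%, against 18.5% of the 4647 genes of that level) and 10 of 12 had negative values (83.3%, against 54.6%). That level was chosen after the values had been seen.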
